A study of Mus musculus with 4 samples.

Results

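Ribosomal protein pseudogenes are described here in λ-MYC lymphoma cells of the mouse. They were selected on their annotation and their level. A member is a gene annotated as a pseudogene whose symbol starts with Rpl or Rps and contains -ps, with at least 1 TPM in at least 1 of 4 RNA-seq libraries. TPM (transcripts per 1000000) is the level of a gene relative to its length and to all RNA in its library, so that levels of different genes can be set side by side. Of the 280 pseudogenes of this name analysed, 130 reached the limit and 150 did not. Among the 150, 83 were listed at 0 in every library. The table of the series holds 34866 genes in all, of which 34652 were found in the annotation.

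The libraries came from 2 mice that carried the λ-MYC transgene, a Cre knock-in allele and the R26tdTom+/ki allele (λ-MYC Tom+/ki) and that had an IgM+ Tom+ tumor. In the transgene a translocated human MYC gene is driven by regulatory sequences of the λ light chain, and Cre switches on Tomato (Tom) for good in the cells in which it is expressed and in their progeny. From the spleen of each mouse, B cells positive for B220 and IgM were sorted into Tom+ and Tom- fractions, which gave 1 library of each kind from tumor #1 and from tumor #2. Age was not given in the labels, the controls carry every allele that the Tom+ cells carry, and each tumor stands for 1 animal. Values below follow the order tumor #1 Tom-, tumor #1 Tom+, tumor #2 Tom-, tumor #2 Tom+. In bulk samples, fewer cells of a type and less RNA per cell cannot be told apart.

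Ribosomal proteins build the small subunit of the ribosome (Rps genes) and the large subunit (Rpl genes), and their mRNAs are among the most abundant of a growing cell. Processed pseudogenes arise when such an mRNA is copied into DNA by reverse transcription and inserted elsewhere in the genome, so they lack the introns of the gene they came from and often match its coding sequence closely. That gene is called the parent below, and it was taken from the symbol before -ps. MYC is known to raise the transcription of ribosomal protein genes.

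The 130 members traced to 50 parents, 31 of the large and 19 of the small subunit, with 81 and 49 members. In the annotation 126 were processed pseudogenes and 4 were transcribed processed pseudogenes, and all 130 had 1 exon. They lay on 20 of the 21 chromosomes, and 5 lay on the chromosome of their parent. Rpl31, whose product sits near the exit of the peptide tunnel, had the most members (14). Rpl17, Rps12 and Rps19 had 7 each, Rpl30 and Rps15a had 6 each, and 20 parents had 1.

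Stretches of coding sequence from 3 families show how much of a member a sequenced read can tell from its parent. They were read from the GENCODE M21 transcripts on the GRCm38 build and run 5′ to 3′, with capitals where a member differs from the reference named. Positions are counted from 1 at the A of the start codon of the parent. Rpl38 encodes a large-subunit protein known for its part in the translation of Hox mRNAs in the embryo. Its gene lies on the plus strand of chr11:114668524-114672331, Rpl38-ps2 on the minus strand of chr6:140746960-140747172 and Rpl38-ps1 on the plus strand of chr4:138425788-138426002. All 213 bases of Rpl38-ps2 matched the coding sequence of Rpl38, and Rpl38-ps1 differed from it by C7T, G9T, G81A and C166T:
Rpl38: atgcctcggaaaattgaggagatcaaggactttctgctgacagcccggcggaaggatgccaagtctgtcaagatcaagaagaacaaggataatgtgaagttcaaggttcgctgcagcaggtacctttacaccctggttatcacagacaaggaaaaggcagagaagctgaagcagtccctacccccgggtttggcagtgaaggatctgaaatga
Rpl38-ps2: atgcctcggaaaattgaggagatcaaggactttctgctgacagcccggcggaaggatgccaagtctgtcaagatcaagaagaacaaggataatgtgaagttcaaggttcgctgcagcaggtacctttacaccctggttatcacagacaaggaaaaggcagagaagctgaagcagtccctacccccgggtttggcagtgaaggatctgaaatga
Rpl38-ps1: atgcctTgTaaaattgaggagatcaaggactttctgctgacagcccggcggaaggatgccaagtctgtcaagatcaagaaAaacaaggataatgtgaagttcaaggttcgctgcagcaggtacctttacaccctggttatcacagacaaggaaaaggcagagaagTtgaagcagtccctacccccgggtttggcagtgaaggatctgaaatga

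Rpl36a encodes another large-subunit protein and has a close relative, Rpl36al, that encodes almost the same protein. Over the first 150 bases of the coding sequence, Rpl36a-ps2 on the plus strand of chr3:145879020-145879340 had 0 differences from Rpl36a. Rpl36a-ps3 on the plus strand of chr6:136488807-136489127 had 24. The capitals mark the differences from Rpl36a, which lies on the plus strand of chrX:134585654-134588062:
Rpl36a: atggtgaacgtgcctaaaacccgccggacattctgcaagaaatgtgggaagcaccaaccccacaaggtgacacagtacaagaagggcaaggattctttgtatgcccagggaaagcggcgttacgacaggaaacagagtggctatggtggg
Rpl36a-ps2: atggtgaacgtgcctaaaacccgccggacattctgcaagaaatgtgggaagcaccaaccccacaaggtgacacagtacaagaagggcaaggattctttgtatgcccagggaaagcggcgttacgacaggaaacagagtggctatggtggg
Rpl36a-ps3: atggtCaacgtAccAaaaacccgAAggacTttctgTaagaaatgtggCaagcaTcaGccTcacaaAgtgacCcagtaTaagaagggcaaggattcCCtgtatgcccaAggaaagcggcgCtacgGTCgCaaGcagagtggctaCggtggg

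Set against Rpl36al, on the minus strand of chr12:69182731-69184083, the same stretch of Rpl36a-ps3 had 1 difference, so this member is closer to Rpl36al than to the parent its name gives:
Rpl36al: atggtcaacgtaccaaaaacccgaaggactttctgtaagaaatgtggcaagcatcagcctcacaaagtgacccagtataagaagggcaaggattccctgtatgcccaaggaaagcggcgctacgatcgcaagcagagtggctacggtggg
Rpl36a-ps3: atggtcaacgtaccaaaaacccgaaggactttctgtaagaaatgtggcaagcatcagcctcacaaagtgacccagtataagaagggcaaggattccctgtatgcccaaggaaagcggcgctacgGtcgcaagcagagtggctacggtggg

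Rps15a encodes a small-subunit protein and lies on the minus strand of chr7:118104372-118116188. Of its 6 members, 4 are shown over the stretch that aligned with the first 240 bases of its coding sequence, because they are the most abundant copies of the family and include the member with the smallest p-value between Tom+ and Tom- cells. They are Rps15a-ps7 (minus strand of chr2:152185291-152185682), Rps15a-ps5 (minus strand of chr5:105797321-105797713), Rps15a-ps6 (minus strand of chr11:6172644-6173036) and Rps15a-ps3 (plus strand of chr4:150847113-150847507). The substitution T150C was found in all 4 of them, and Rps15a-ps7 is 1 base shorter than the parent over this stretch (239 bases). Rps15a-ps6 also carried C7T, which turns the third codon into a stop codon, and its longest frame from a start to a stop codon had 127 codons against 130 in Rps15a:
Rps15a: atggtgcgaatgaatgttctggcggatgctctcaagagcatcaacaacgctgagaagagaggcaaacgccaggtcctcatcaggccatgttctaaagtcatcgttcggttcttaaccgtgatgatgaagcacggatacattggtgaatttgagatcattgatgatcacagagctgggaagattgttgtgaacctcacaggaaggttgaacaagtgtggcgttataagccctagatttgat
Rps15a-ps7: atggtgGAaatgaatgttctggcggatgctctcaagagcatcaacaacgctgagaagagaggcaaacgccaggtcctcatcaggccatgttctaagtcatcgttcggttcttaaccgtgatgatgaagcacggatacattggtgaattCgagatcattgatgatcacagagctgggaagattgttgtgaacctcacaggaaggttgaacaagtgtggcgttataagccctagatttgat
Rps15a-ps5: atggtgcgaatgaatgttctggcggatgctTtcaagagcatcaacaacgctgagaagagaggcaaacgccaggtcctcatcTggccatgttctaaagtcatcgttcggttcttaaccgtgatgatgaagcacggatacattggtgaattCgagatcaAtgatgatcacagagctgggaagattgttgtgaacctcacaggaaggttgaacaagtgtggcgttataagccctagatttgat
Rps15a-ps6: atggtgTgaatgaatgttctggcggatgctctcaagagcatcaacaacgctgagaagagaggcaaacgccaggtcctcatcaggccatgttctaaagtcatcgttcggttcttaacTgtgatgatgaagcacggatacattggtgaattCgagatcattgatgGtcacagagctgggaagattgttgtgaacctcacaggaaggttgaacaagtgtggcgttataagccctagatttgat
Rps15a-ps3: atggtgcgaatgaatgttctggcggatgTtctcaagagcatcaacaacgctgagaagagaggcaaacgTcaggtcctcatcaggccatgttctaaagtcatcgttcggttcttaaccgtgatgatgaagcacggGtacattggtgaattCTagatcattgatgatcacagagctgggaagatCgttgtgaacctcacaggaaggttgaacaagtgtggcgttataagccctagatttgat

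The members together took a few percent of all TPM, and a small number of them made up most of it. Their summed level was 38450, 35919, 28714 and 26797 TPM, or 3.85%, 3.59%, 2.87% and 2.68% of each library. This was 12.3%, 11.9%, 11.3% and 11.4% of the TPM of all annotated pseudogenes. The 10 most abundant members held 69.0% to 70.2% of the summed level, and Rpl38-ps2 held 24.4% to 27.0% of it. The median member was at 1.57, 1.59, 1.51 and 1.70 TPM. In contrast, the median parent was at 1341, 1334, 1113 and 946 TPM and the lowest parent at 58.0, 83.9, 80.7 and 17.4 TPM. Set against their parents, which summed to 91623, 91316, 74214 and 64675 TPM, the members took 29.6%, 28.2%, 27.9% and 29.3% of the TPM of members and parents. The mean of these shares was 28.7% ± 0.807 (SD over 4 libraries of 2 mice).

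Levels covered a wide range. Of the 130 members, 28 had a mean of at least 100 TPM over the 4 libraries, 37 had a mean of at least 10 TPM, and 48 had a mean under 1 TPM. Since the rule asked for 1 TPM in 1 library, 45 members reached it in 1 library, 22 in 2, 17 in 3 and 46 in all 4. In each library 29 to 39 members were listed at 0, and 60 members were never at 0. Just inside the limit were Rps12-ps24 (highest value 1.01 TPM) and Rpl18-ps2 (1.05 TPM). Just outside were Rps6-ps1 (0.984 TPM), Rpl19-ps9 (0.966 TPM) and Rpl3-ps2 (0.957 TPM). The depth of the libraries is unknown, so a value of 0 has no stated limit of detection.

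**Figure D1:**
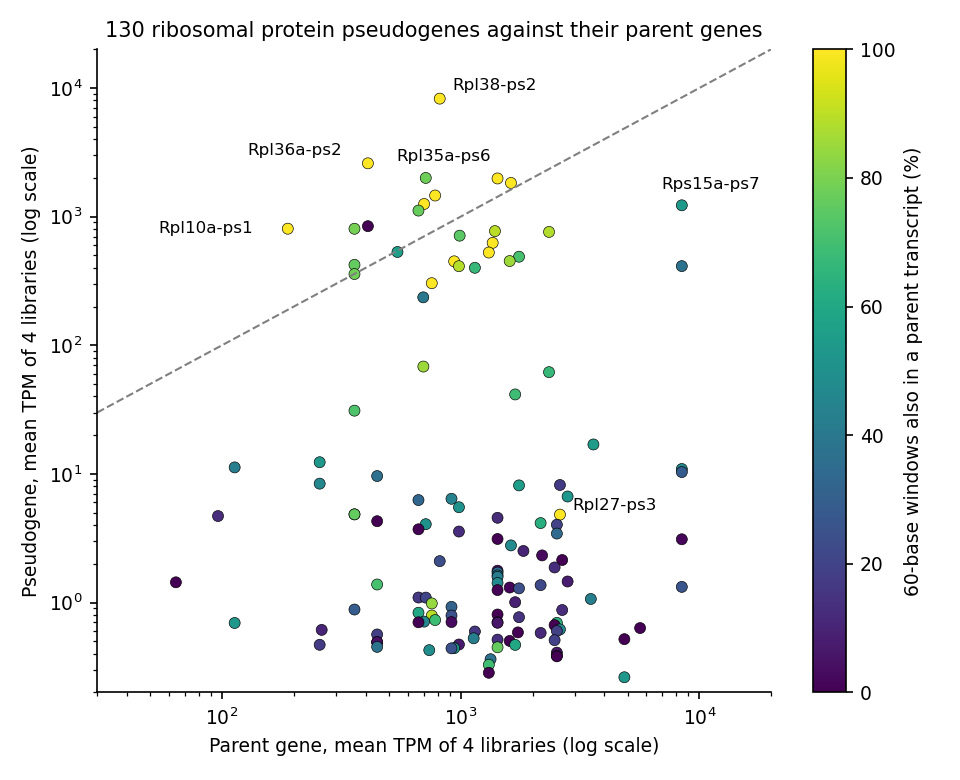
Mean TPM of each of the 130 pseudogenes (vertical axis) against the mean TPM of its parent (horizontal axis), both over 4 libraries and on log scales. The colour gives the percentage of 60-base windows of the pseudogene that occur in a transcript of the parent, and the dashed line marks equal levels. Most points lie far below the line, and Rpl38-ps2 stands farthest above it with a mean of 8265 TPM.

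The most abundant members came from genes of both subunits. Rpl38-ps2 was listed at 9579, 8774, 7759 and 6946 TPM. Its parent Rpl38 was listed at 866, 823, 805 and 773 TPM, so that the copy was listed 8.99 to 11.1 times above the gene in every library. Since the copy matches Rpl38 over its whole length, a read within it cannot be assigned to either by its sequence. How such reads were divided was not tested, so the ratio describes the listed values only. The other copy of Rpl38 printed above, Rpl38-ps1, was listed at 0 in 3 libraries and at 8.39 TPM in Tom- cells of tumor #2. Rpl36a-ps2 was at 3307, 3058, 2002 and 2017 TPM, against 445, 444, 357 and 389 TPM for Rpl36a. Rpl36a-ps3, the copy closest to Rpl36al, was at 1051, 981, 748 and 590 TPM. This was above Rpl36a in every library and also above Rpl36al, which was listed at 259.5, 261.4, 207.4 and 176.5 TPM.

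Rpl35a-ps6 was listed at 2304, 2267, 1720 and 1702 TPM, against 826, 815, 658 and 556 TPM for Rpl35a, a large-subunit gene that is mutated in some patients with Diamond-Blackfan anemia. It differed from its parent by 1 substitution (G156A) over its 333 bases. Rpl31-ps8 was at 2186, 2354, 1778 and 1601 TPM, against 1689, 1659, 1294 and 1064 TPM for Rpl31. Rpl28-ps1 and Rpl28, a large-subunit gene, were at nearly equal levels, with 2251, 2090, 1593 and 1374 TPM for the copy and 1741, 1807, 1656 and 1291 TPM for the gene. The copy was above the gene in 3 of the 4 libraries. These 3 members and both high copies of Rpl36a were lower in tumor #2 than in tumor #1, without overlap of the libraries.

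Among copies of small-subunit genes, Rps23-ps1 was listed at 2206, 2077, 834 and 719 TPM. Rps23, whose product lies at the decoding centre, was at 1059, 1148, 480 and 438 TPM, so both copy and gene were lower in tumor #2. Rps6-ps4 was at 1451, 1360, 1131 and 1071 TPM, against 836, 906, 576 and 492 TPM for Rps6, the target of S6 kinase. Rps15a-ps7 was at 1122, 1206, 1210 and 1359 TPM and far below Rps15a, which had the highest level of all parents named here with 10255, 9406, 7487 and 6612 TPM. The libraries of the 2 tumors did not overlap for Rps15a-ps7 either, but here tumor #2 was the higher one, opposite to its parent. Rpl30-ps9, a copy of a large-subunit gene, was at 1063, 828, 1386 and 1180 TPM, against 763, 751, 604 and 544 TPM for Rpl30.

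**Figure D2:**
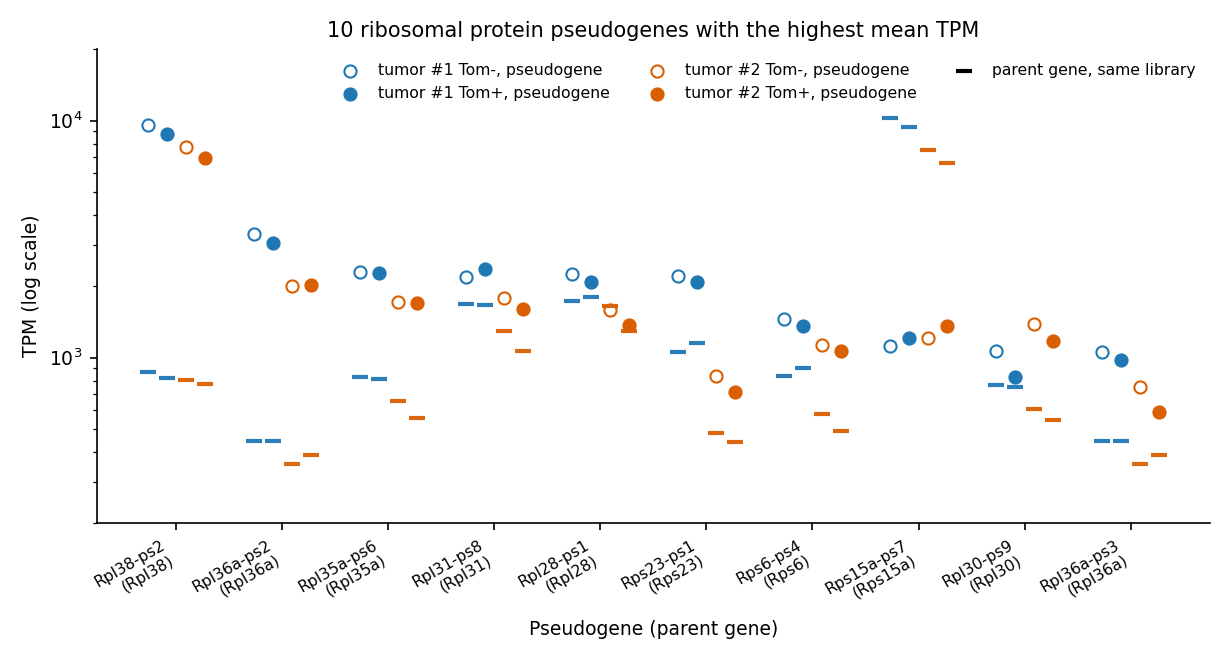
TPM (log scale) of the 10 pseudogenes with the highest mean, in each of the 4 libraries (circles; open for Tom-, filled for Tom+, blue for tumor #1, orange for tumor #2), with the parent gene in the same library (dashes). Of these 10, the copies of Rpl38, Rpl36a, Rpl35a, Rpl31, Rps23, Rps6 and Rpl30 lie above their parents in every library, and Rps15a-ps7 lies below its parent.

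In every library 11 members from 9 parents were above their parent. The rule did not use the parent, but these are levels of genes chosen for their level and are given as a description. Besides Rpl38-ps2, Rpl36a-ps2, Rpl36a-ps3, Rpl35a-ps6, Rpl31-ps8, Rps23-ps1, Rps6-ps4 and Rpl30-ps9, they were Rpl10a-ps1, Rpl17-ps3 and Rpl17-ps5. Rpl10a-ps1 was listed at 1011, 1016, 607 and 587 TPM, against 209.8, 229.3, 188.9 and 126.7 TPM for the large-subunit gene Rpl10a. Rpl17-ps3 was at 798, 858, 891 and 671 TPM, against 346, 391, 349 and 349 TPM for Rpl17. The excess was at least 2-fold in every library for 4 of the 11, namely Rpl38-ps2, Rpl36a-ps2, Rpl10a-ps1 and Rpl35a-ps6. There were 116 members that were below their parent in every library.

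The members matched their parents closely, and the share of sequence that they had in common went with their level. Over the aligned part, the median identity with the parent transcript was 98.4%, 104 of the 130 members had an identity of at least 95%, and 12 had no difference at all. Lengths ran from 151 to 1210 bases with a median of 438, and 119 members covered at least 95% of the coding sequence of the parent. A frame as long as that of the parent, from a start to a stop codon inside the annotated copy, was found in 62 members. The sequenced reads were 60 bases long, so each member was also cut into every window of that length. A median of 39.2% of these windows occurred in a transcript of the parent, and 16 members had no window that was not found in another annotated gene as well.

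The 12 members with every window in the parent had a median of the mean TPM of 1029, and 11 of them had a mean of at least 100 TPM. These 12 members held 61.9% of the TPM of all members. The exception was Rpl27-ps3, a copy of the large-subunit gene Rpl27, with a mean of 4.82 TPM and the same sequence as another annotated pseudogene, Gm11518. The 38 members with at least 50% of their windows in the parent had a median of 14.6 TPM and held 33.0% of the TPM. The 64 members with a smaller share had a median of 1.19 TPM and held 2.45%, and the 16 with no window in the parent had a median of 0.754 TPM and held 2.66%. Nearly all of that last share belonged to Rpl36a-ps3, which had 202 of its 262 windows in common with Rpl36al. Across the 130 members, Spearman's rho between the mean TPM and the share of windows in the parent was 0.539, and between the mean TPM and the identity it was 0.524. Members of a family share their parent and much of their sequence, so these are descriptions over points that are not independent. A read that falls in a common window cannot be assigned by its sequence, and how such reads were divided between copies and parents was not tested.

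**Figure D3:**
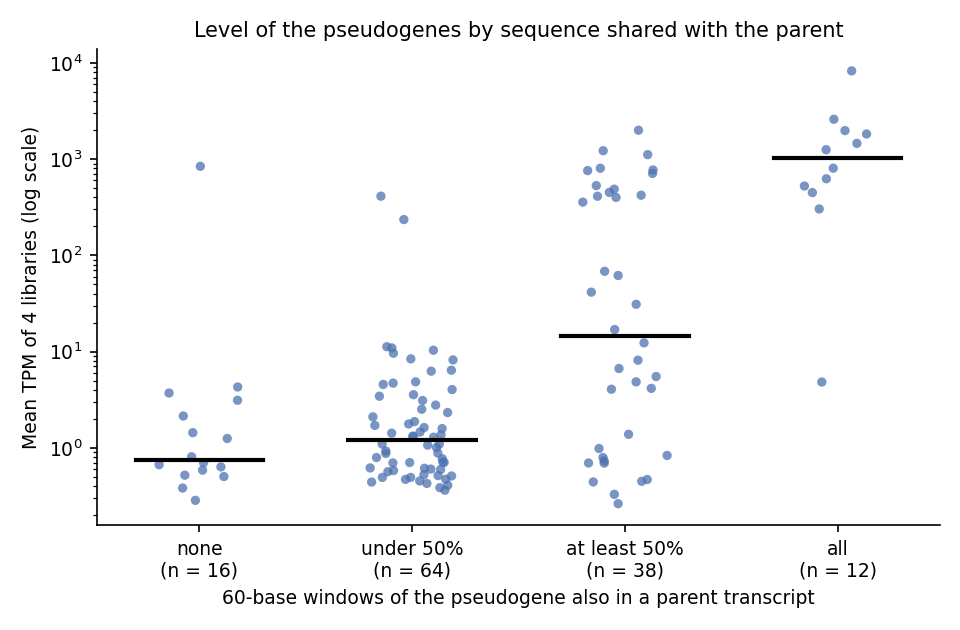
Mean TPM over 4 libraries (log scale) of the 130 pseudogenes, grouped by the share of their 60-base windows that also occur in a parent transcript. Points are pseudogenes and bars are medians, which stand at 0.754, 1.19, 14.6 and 1029 TPM from none to all.

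The name of a member did not always give its closest gene. For 3 members the protein-coding gene with the most windows in common was not the named parent. They included Rpl36a-ps3 (Rpl36al) and Rps18-ps3 (Gm11361). Rps12-ps20 and Rps12-ps21, copies of a small-subunit gene that both lie on chromosome X, had equal TPM values in each library (0.304, 1.47, 0.192 and 0) although their sequences differ. They cannot be counted as independent members.

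Families differed widely in how their TPM was divided between copies and parent. A family follows the symbols, so Rpl36a-ps3 counts as a copy of Rpl36a, and copies named without -ps are left out. In 9 of the 50 families the summed copies were above the parent in every library, and in 16 families they stayed under 1% of the TPM of the family. The copies took 90.0% to 91.7% of the Rpl38 family, 87.0% to 90.7% of the Rpl36a family and 80.4% to 83.5% of the Rpl17 family. The 14 copies of Rpl31 took 56.7% to 60.2%, nearly all of it from Rpl31-ps8. Each of the other 13 copies of Rpl31 had a mean between 0.449 and 4.56 TPM. Among them Rpl31-ps17 and Rpl31-ps6 were above 0 in every library, as was Rpl31-ps20. The others, Rpl31-ps1, Rpl31-ps3, Rpl31-ps4, Rpl31-ps9, Rpl31-ps11, Rpl31-ps13, Rpl31-ps14, Rpl31-ps15, Rpl31-ps16 and Rpl31-ps22, were each listed at 0 in at least 1 library. Although Rpl31-ps9 was 99.5% identical to Rpl31 and had 76.2% of its windows in it, it was listed at 1.79 TPM in Tom- cells of tumor #1 and at 0 in the other libraries.

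Rpl17, a large-subunit gene near the peptide exit, had 3 copies with a mean of at least 100 TPM. Besides Rpl17-ps3, Rpl17-ps5 was listed at 392, 412, 388 and 496 TPM and Rpl17-ps8 at 482, 407, 315 and 227 TPM, while Rpl17-ps10 was lower at 68.7, 20.2, 14.8 and 20.2 TPM. The last 3 of the 7 copies, Rpl17-ps4, Rpl17-ps7 and Rpl17-ps9, were never above 13.7 TPM. Rpl30 had a single high copy, Rpl30-ps9, and the 6 copies together took 52.8% to 69.8% of the family. Of its other copies, Rpl30-ps2 was listed at 14.8 TPM in Tom+ cells of tumor #2 and at 0 elsewhere. Rpl30-ps6, Rpl30-ps8 and Rpl30-ps11 were each at 0 in at least 1 library and never above 3.38 TPM.

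Copies of Rps15a took 13.9% to 20.8% of their family. Rps15a-ps5 was listed at 511, 443, 350 and 345 TPM. Below it came Rps15a-ps3, with 13.2, 11.4, 14.7 and 1.97 TPM, and Rps15a-ps8 and Rps15a-ps4, both under 5 TPM in every library. In the Rps12 family the 7 copies took 3.19% to 4.46%, and the most abundant, Rps12-ps10, was listed at 10.2, 12.6, 13.1 and 2.57 TPM. Rps12-ps9 was listed in Tom- cells of tumor #2 alone (5.52 TPM), and Rps12-ps19 in both libraries of tumor #2 (0.602 and 1.66 TPM). The 7 copies of Rps19, a small-subunit gene mutated in Diamond-Blackfan anemia, took 0.362% to 0.450% of a family that summed to 3082, 2964, 2162 and 1946 TPM. In contrast, the single copy of Rpl10a took 76.3% to 82.8% of its family. The copies of Rps19 were Rps19-ps3 and Rps19-ps6, described below, Rps19-ps4 with 1.61 to 4.90 TPM, and Rps19-ps2, Rps19-ps7, Rps19-ps9 and Rps19-ps10, none of which exceeded 1.54 TPM.

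**Figure D4:**
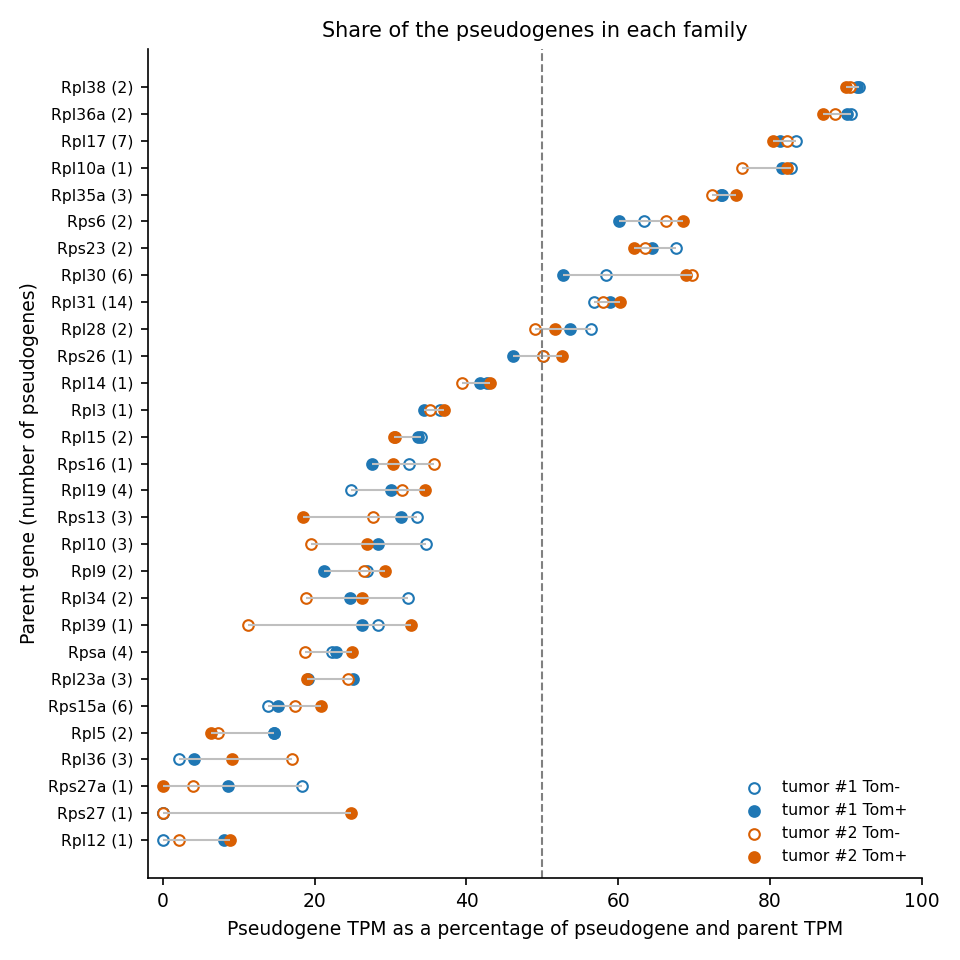
Summed TPM of the pseudogenes of a family as a percentage of the TPM of pseudogenes and parent (horizontal axis), for the 29 families that reached 5% in at least 1 library (rows, with the number of pseudogenes). Circles are libraries, open for Tom- and filled for Tom+, blue for tumor #1 and orange for tumor #2, grey lines give the range, and the dashed line marks 50%. The Rpl38 family is at the top with 90.0% to 91.7%.

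By position, 84 members overlapped no protein-coding gene, 29 lay in an intron of a gene on the opposite strand, 15 in an intron of a gene on the same strand, and 2 across an exon on the opposite strand. The median of the mean TPM was 3.44 for the 29 members in an intron on the opposite strand and 0.792 for the 15 on the same strand as their host. Both of the most abundant members lay within the bounds of a host gene. Rpl36a-ps2 lay in an intron of Ddah1, and Rpl38-ps2 lay opposite an intron of Gm11077. Both hosts were listed at 0 in all 4 libraries. Rps15a-ps6 lay in an intron of Nudcd3 on the same strand, and Nudcd3 was listed at 20.5, 20.9, 20.7 and 21.6 TPM. Whether the libraries kept the strand is not given in the sources used here, so reads of a copy and of a gene on the opposite strand cannot be told apart.

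The comparison of Tom+ with Tom- cells asks how cells in which Cre was active differ from cells of the same tumor in which it was not. No member passed the adjusted test. Changes were tested with limma on log2(TPM + 1), with the tumor as a block, over the 11339 genes with at least 1 TPM in at least 2 libraries. Of the 130 members, 85 passed this filter. An adjusted p-value below 0.05 was reached by 0 of the 85 members and by 0% of all genes tested, and the smallest adjusted p-value of a member was 0.936. The spread of a value rests on 1 residual degree of freedom and on sharing between genes.

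An unadjusted p-value below 0.05 was found for 12 members (14.1% of 85, against a background of 4.67% of all genes), 8 higher and 4 lower in Tom+ cells. Without the block for the tumor the count was 7, and with a mean of at least 5 TPM as the filter it was 3. The backgrounds by direction were 2.04% higher and 2.64% lower. The same count was 147 of 1033 other pseudogenes (14.2%), so the share was no higher than in pseudogenes outside the list. These can include copies of ribosomal protein genes named without -ps. Among the other pseudogenes with -ps in the symbol, it was 14 of 68 (20.6%). All 12 of the members had a mean under 100 TPM. Among the 46 members with at least 1 TPM in all 4 libraries the count was 2 (4.35%). A member that passed the filter only through the group where it was high had to differ, so the count over the 85 is no evidence about them.

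The member with the smallest p-value was Rps15a-ps6, with 0, 21.3, 0 and 22.4 TPM (unadjusted p = 0.000144, adjusted p = 0.936 by limma). Its value was thus 0 in both Tom- libraries and nearly the same in both Tom+ libraries. Of its 60-base windows, 47.9% were also in Rps15a and 52.1% were found in no other annotated gene. Rps15a itself was at 9406 and 6612 TPM in the Tom+ libraries, against 10255 and 7487 TPM in the Tom- libraries. Rpl17-ps9 was listed at 0, 5.66, 0 and 13.7 TPM (unadjusted p = 0.00265, adjusted p = 0.936 by limma). It differs from Rpl17 by C131T and C367T, and 75.8% of its windows were in the parent. These were the only members at 0 in both libraries of 1 Tom status with at least 5 TPM in both of the other. Both passed the filter through the Tom+ libraries alone, so they had to differ. Their p-values are therefore no evidence of a difference.

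The other members with an unadjusted p-value below 0.05 that were higher in Tom+ cells had low levels. Rpl12-ps1, a copy of a gene of the stalk base, was listed at 0, 7.40, 3.02 and 8.39 TPM (unadjusted p = 0.0275, adjusted p = 0.936 by limma). Rpl10-ps5 was at 0, 1.62, 0 and 2.31 TPM and Rps19-ps6 at 0, 1.10, 0 and 1.68 TPM. Rpl10-ps5 and Rps19-ps6 also passed the filter through the Tom+ libraries alone. Rpl30-ps3 was above 0 in every library, with 4.37, 7.96, 4.11 and 8.59 TPM, a log2 difference of 0.82 (SE 0.20, unadjusted p = 0.0238, adjusted p = 0.936 by limma). Rpsa-ps9, at 0.676, 2.86, 0.429 and 1.18 TPM, had an unadjusted p-value of 0.0472 (adjusted p = 0.936 by limma). Like Rpl10-ps5 and Rps19-ps6, Rpsa-ps9 passed the filter through the Tom+ libraries alone. The p-values of such members are no evidence of a difference. Rps24-ps3, at 0, 2.77, 7.49 and 16.4 TPM, had an unadjusted p-value of 0.0168 (adjusted p = 0.936 by limma). In each of these members the Tom+ library was above the Tom- library of its own tumor.

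Lower in Tom+ cells of both tumors was Rps19-ps3, with 5.18, 1.70, 7.69 and 1.54 TPM. Its log2 difference was -1.48 (SE 0.27, unadjusted p = 0.00969, adjusted p = 0.936 by limma), and the Tom+ and Tom- libraries did not overlap. Rps27a-ps2, a copy of the gene that encodes ubiquitin fused to a small-subunit protein, was listed at 176.0, 70.7, 26.4 and 0 TPM. It was lower in Tom+ cells of each tumor, but Tom+ cells of tumor #1 were above Tom- cells of tumor #2. Rpl31-ps22 was at 1.43, 0, 1.797 and 0 TPM and passed the filter through the Tom- libraries alone. These 3 members each had an adjusted p-value of 0.936 with limma.

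Values of 0 beside values above 0 occurred in every direction. These patterns were not counted over all genes, so the counts describe the members only and say nothing particular about them. There were 6 members at 0 in both Tom- libraries and above 0 in both Tom+ libraries, and 5 members with the reverse pattern. Between tumors, 5 members were at 0 in both libraries of tumor #1 and above 0 in both of tumor #2, and 5 the reverse. Within a tumor, 35 members of tumor #1 and 41 of tumor #2 were at 0 in 1 library and above 0 in the other. In 15 members a value of 0 in 1 library stood beside more than 5 TPM in the other library of the tumor.

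The differences spread more widely for low members than for high members. The SD of the log2 difference over the 85 members was 1.21 in tumor #1 and 1.65 in tumor #2, against 0.602 and 0.787 over all genes tested. Other pseudogenes had a similar SD, with 1.23 and 1.61 over all 1033 and 1.06 and 1.45 over the 68 with -ps. The wide spread is thus not particular to the members. The SD was 0.195 and 0.437 for the 28 members with a mean of at least 100 TPM and 1.47 and 2.00 for the 57 below that mean. Among the 28, chosen after its values were seen, Rpl39-ps was listed at 327.5, 275.7, 82.6 and 257.2 TPM, with a log2 difference of -0.25 in tumor #1 and 1.63 in tumor #2. Summing the copies and the parent of each family gave 0.161 and 0.309 over the 50 families. The tumors agreed in direction for 48.2% of the 85 members, beside 51.2% of all genes tested, and 41 of the 85 differed in opposite directions (48.2%, beside 47.3% of all genes). In 3 of the 85 members the difference exceeded 2 on the log2 scale in both tumors with opposite signs, and in 2 with the same sign. Over all 11339 genes tested, these counts were 40 and 30. The 3 members with opposite signs, chosen after their values were seen, were Rps25-ps1 (34.4, 0, 0.406 and 32.9 TPM), Rpl9-ps7 (101.9, 18.8, 4.69 and 121.7 TPM) and Rpl36-ps2 (1e-06, 5.36, 43.9 and 0 TPM).

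**Figure D5:**
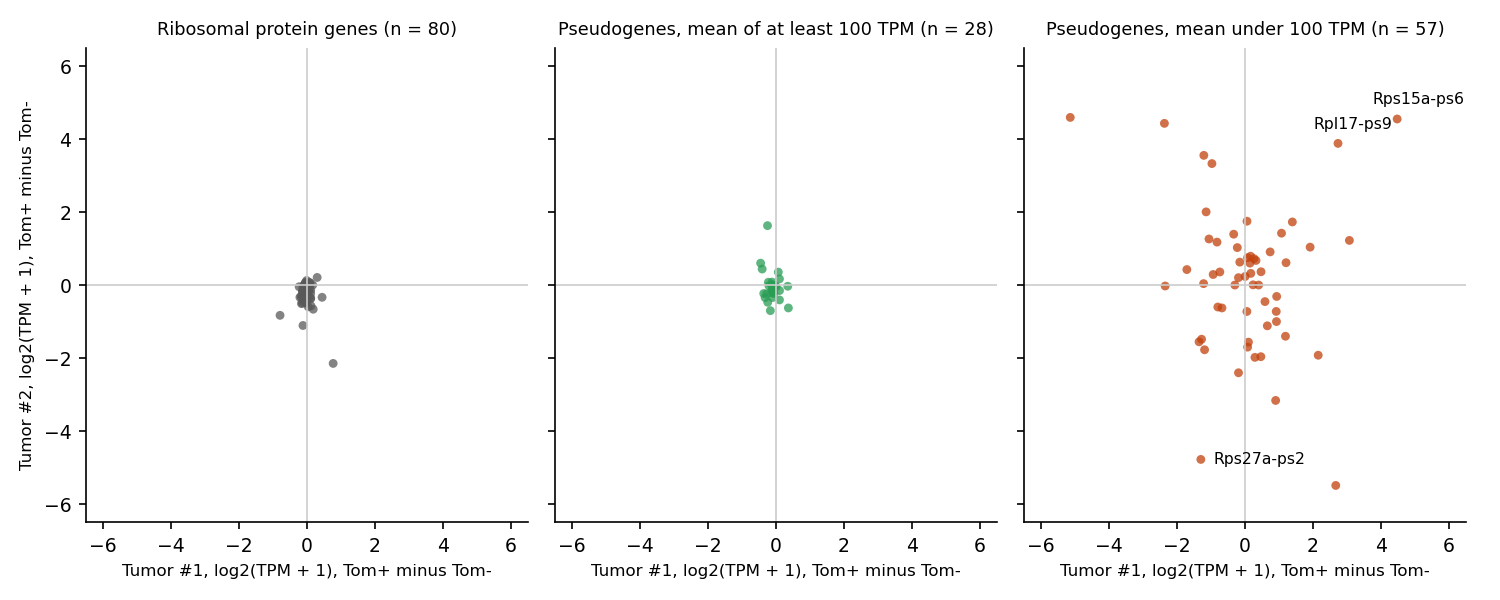
Difference in log2(TPM + 1) between Tom+ and Tom- cells in tumor #1 (horizontal axis) and in tumor #2 (vertical axis), for 80 cytosolic ribosomal protein genes (left), 28 pseudogenes with a mean of at least 100 TPM (middle) and 57 pseudogenes with a lower mean (right). Each point is a gene. Most points of the first 2 groups lie near 0, and the third group is spread over all 4 quadrants, with Rps15a-ps6 and Rpl17-ps9 at the upper right.

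As a group, the members differed little between Tom+ and Tom- cells. The median log2 difference of the 85 tested members was -0.022, beside -0.033 over all genes, and its sign turned to 0.034 with quantile normalization and to 0.010 without the filter. The summed TPM of the members differed by -0.098 in tumor #1 and by -0.0997 in tumor #2 on the log2 scale (mean -0.099 ± 0.0010, SD of 2 tumors). The tumors were less alike with trimmed-mean scaling (-0.119 and -0.069) and after rescaling to protein-coding genes (-0.135 and -0.046). The summed TPM of the parents differed by -0.0048 and -0.198 (mean -0.10 ± 0.14). An exact two-sided permutation test within 2 tumors cannot give a p-value below 0.5 for such a sum. Of the 80 cytosolic ribosomal protein genes, 41 were lower and 6 higher in Tom+ cells of both tumors, and 0 passed the adjusted test. Of all 11339 genes tested, 3349 were lower and 2452 higher in both tumors. Of the 1050 genes with a mean of at least 100 TPM, 396 were lower and 169 higher. The unadjusted p-value was below 0.05 for 1 of the 80 genes, Rpl35, a large-subunit gene that is no parent of a member. It was listed at 470, 272, 258 and 145 TPM, a log2 difference of -0.81 (SE 0.12, unadjusted p = 0.00491, adjusted p = 0.936 by limma).

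The tumors are 1 mouse each and allow no test between them. The members were more often higher in tumor #1 than in tumor #2, mainly those with a mean of at least 100 TPM. Among the 85 tested members the libraries did not overlap and were higher in tumor #1 for 32 (37.6%, against a background of 23.7% of all genes) and higher in tumor #2 for 10 (11.8%, against 44.8%). Over all 130 members these counts were 39 and 16, with 75 overlapping. Ribosomal protein genes went the same way, with 70 of 80 higher in tumor #1 and 4 of 80 higher in tumor #2. The members with a mean of at least 100 TPM were higher in tumor #1 in 20 of 28 and higher in tumor #2 in 3 of 28. Of all genes with such a mean, 542 of 1050 were higher in tumor #1 and 262 of 1050 in tumor #2. Of the 57 tested members with a lower mean, 12 were higher in tumor #1 and 7 in tumor #2. Beside them stood 2143 and 4820 of the 10289 genes with a mean under 100 TPM. The share higher in tumor #1 was thus similar in these members and in genes of that level.

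The largest differences between tumors were found in members of intermediate or low level. Rpl27-ps2 was listed at 0.503, 1.08, 13.5 and 17.7 TPM. Rps24-ps3, a copy of a small-subunit gene, was at 0, 2.77, 7.49 and 16.4 TPM. These members were higher in tumor #2, as were Rps12-ps26 (1.19, 1.28, 2.83 and 11.9 TPM) and Rpl21-ps6 (0, 0, 0.687 and 3.01 TPM). In the other direction, Rps27a-ps2 was followed by Rpl31-ps3, with 6.99, 5.48, 0 and 0 TPM. Rps18-ps3 was at 7.03, 7.60, 1.96 and 0 TPM. Rpsa-ps2, a copy of the gene for the laminin receptor of the small subunit, was at 4.83, 24.9, 2.82 and 0.00728 TPM. In Rpsa-ps2 the Tom+ library was the higher one in tumor #1 and the lower one in tumor #2.

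The sorted cells carried the markers of B cells. The summed level of 7 B cell markers was between 2205 and 5585 TPM per library, and all 7 were above 0 in every library. The 5 T cell markers summed to 0.398 to 8.27 TPM and the 5 myeloid markers to 0.481 to 6.25 TPM, both highest in Tom- cells of tumor #2. Cd14 was at 0 in every library. The 4 erythroid markers summed to 0.269 to 2.70 TPM, with Hba-a1 at 0 in every library. Of 3 stromal and endothelial markers, Pecam1, which B cells can also express, was at 14.2 to 49.7 TPM and higher in tumor #2. The part of other cells in the values of the members was not tested.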

How the data were processed

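Bulk polyA RNA of sorted B220+ IgM+ Tom+ and Tom- splenocytes of 2 mice was sequenced as 60-base single reads. Per the labels and the study's methods, the authors called bases with CASAVA 1.8 and removed adapters with Cutadapt. The authors then ran Salmon 1.9 against GRCm38 transcripts, and the deposited gene levels are in TPM, which sum to 1000000 in each library. How transcripts were summed to genes, and how Salmon treated identical transcripts and genomic decoys, is not given in the sources used here. The annotation release behind the TPM values is uncertain and may differ from the one used for the windows below. Both bear on the levels of copies against parents. Depth is unknown, so no interval for counting error was computed, and counts for the authors' paired edgeR test were not used here. The number of libraries limits the precision, since Tom+ and Tom- have 2 each.

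Identifiers were matched to GENCODE M21 (GRCm38), which names the type, symbol and position of each gene. The members and lists were chosen with earlier results of these data known. The scale log2(TPM + 1) was used for genes with at least 1 TPM in at least 2 libraries, with limma 3.58.1 in R 4.3.3, terms for Tom status and tumor, a variance trend and Benjamini-Hochberg adjustment over all genes tested. This scale understates changes of low genes. The pairing comes from the mouse, since both fractions of a tumor were sorted from 1 animal, and the deviations of same-numbered libraries from the Tom means correlated over the 11339 genes (r = 0.626) but not over the 85 members (r = -0.031). The script was tested on simulated data with a smaller spread than that of the members. That test therefore does not show how often a change of a member would be found here. Each member was aligned with the transcripts of its parent with Biopython 1.88. Windows of 60 bases were searched in the transcripts of every gene of the table on the same strand. Tables and plots were made with Python 3.11.15.

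Members named were the 10 with the highest mean TPM, those with an adjusted p-value below 0.05, in each direction the 4 with the smallest unadjusted p-value and the 4 with the largest change of the same sign in both tumors, the 6 with the largest excess over their parent, those at 0 in both libraries of 1 Tom status and at 5 TPM or more in the other, in each direction the 4 with the largest difference between tumors, the 3 on each side of the limit, and members of the families with the most copies (6 families, because of a tie). Rpl39-ps, Rps25-ps1, Rpl9-ps7, Rpl36-ps2, Rpl38-ps1, Rpl27-ps3 and Rpl35 were chosen after their values were seen. Some alleles, markers and members are not reported here.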

Additional observations from a re-analysis of the deposited data

Results flagged for a closer look

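The difference between Tom+ and Tom- cells had opposite directions in the tumors for 41 of 85 members, beside 47.3% of all genes tested. Of these members, 5 are given here. They are 2 of the 10 most abundant and the 3 whose difference exceeded 2 on the log2 scale in both tumors. Over all genes tested, 40 of 11339 had opposite differences of that size. Each tumor has 1 library of each kind, so the difference between the tumors was not tested. On the log2(TPM + 1) scale, Rps25-ps1 differed by -5.15 in tumor #1 and by 4.59 in tumor #2. Rpl9-ps7 differed by -2.38 and 4.43, and Rpl36-ps2 by 2.67 and -5.49. These 3 were chosen after their values were seen, and no fold is given where a library was listed at 0. Among the members with a high level the opposite differences were small, with -0.11 and 0.011 for Rpl36a-ps2 and 0.11 and -0.15 for Rpl31-ps8.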

How the results depend on the processing

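The adjusted test gave 0 members under every alternative fit, and the lowest adjusted p-value of the 19 members followed over these fits was 0.724. Without the block for the tumor, that is without the pairing of libraries of the same mouse, 7 members had an unadjusted p-value below 0.05 in place of 12, and with a mean of at least 5 TPM there were 3 (45 members tested). With a tumor left out, no residual degree of freedom remains, so these counts have no value there. The other fits gave 9 to 16. The median log2 difference moved from -0.022 to -0.086 with a mean of at least 5 TPM, and was 0 and -0.087 when each tumor was left out in turn. That of the summed members was -0.094 with trimmed-mean scaling, -0.090 after rescaling to protein-coding genes and -0.084 without Rpl38-ps2, against -0.099. Counting an excess of at least 2 times left 4 of the 11 members above their parent. Members with at least 5 TPM in a library, with their parents, made up 38.1% in place of 28.7%. Direction turned in 3 of the 19 members, all with differences near 0. They were Rpl36a-ps2 (0.011 and -0.11 with each tumor left out), Rpl35a-ps6 (0.0091 with quantile normalization) and Rpl31-ps8 (0.0059 with quantile normalization, -0.15 and 0.11 with each tumor left out). The cause was not tested. Calls of 0 and low values are limited by a depth that is unknown.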
